A study of Mus musculus with 2 samples.

Results

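The expression of 6 transcription factor genes was followed through the cells of the newborn mouse eye cup: Zfhx2, Zfhx3 and Zfhx4 of the zinc finger homeobox family, and Pou3f1, Pou3f2 and Pou3f3 of the third POU class. They were taken by symbol from the feature list, 6 of 31053 features, and each symbol matched 1 feature. The choice was made with measured values of these same libraries in view, so every level and ratio of a member is a description and none was tested.

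ZFHX proteins are very large and carry many zinc fingers together with several homeodomains, and in the nervous system they act mainly in neurons that have stopped dividing. Zfhx3, also called Atbf1, is known for its part in neuronal differentiation and in the central circadian clock. POU3F proteins bind DNA through a POU-specific domain and a POU homeodomain. Pou3f1 (Oct6) is known from Schwann cells and projection neurons, and Pou3f2 (Brn2) and Pou3f3 (Brn1) act together in neural progenitors and upper-layer neurons of the cortex. In the retina, amacrine cells are the inhibitory interneurons of the inner layers, they form many subtypes, and combinations of homeobox factors help to tell these subtypes apart.

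The control was a Myrf fl/fl library and the mutant an Rx>cre Myrf fl/fl library, both from postnatal day 0, so both genotypes carried the floxed alleles. Each was 1 library of single cells from a pool of 3 eye cups without cornea, lens and optic nerve, and the spread between animals could therefore not be measured. Rx>cre acts in the early eye field, which gives rise to the neural retina and the retinal pigment epithelium (RPE), whereas periocular mesenchyme, vessels and blood have other origins. Because each genotype had a single library, nothing was tested between them, and intervals are exact 95% intervals that cover counting error only. Paired values are given with the control before the mutant.

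The matrices held 14305 control and 12222 mutant barcodes with 79017429 and 76272867 UMIs (unique molecular identifiers, 1 per captured transcript). After filtering, 12449 and 10797 cells remained, at a median of 4274 and 4820 UMIs. Myrf, the deleted gene, stood at 226 and 26.3 CPM (counts per 1000000 UMIs) in RPE-like cells, although a 3′ count checks a deletion only where the deletion removes or destabilises the transcript. The kept cells held 520 and 202 RPE-like cells, and 1530 and 947 cells like mesenchyme or pericytes. In all, 59 barcodes occurred in both libraries, 46 of them kept in both.

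Among the neural cells, 4 classes could be named from their markers: progenitor-like (3978 control and 4598 mutant cells), neurogenic-like (914 and 1021), photoreceptor-like (1230 and 1355) and amacrine-like (721 and 955). No cluster could be named for ganglion, horizontal, bipolar or starburst amacrine cells. At least 5 of 10 ganglion cell markers were found together in 23 control and 20 mutant cells and at least 3 of them in 503 and 501 cells, of which 91 and 159 were amacrine-like. Similarly, at least 3 of 7 horizontal cell markers were found in 6 and 3 cells, and at least 3 of 6 starburst markers in 0 and 0 cells. The members could thus be compared across amacrine-like cells, photoreceptor-like cells and progenitors, and not across the other neuron types. As the classes were rebuilt here, differences from the classes of the original study may come from the names.

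The members lie on 5 chromosomes (coordinates in GRCm38). Zfhx2 covers chr14:55060262-55092324 on the minus strand, Zfhx3 chr8:107942644-108961630 on the plus strand and Zfhx4 chr3:5218526-5415857 on the plus strand. Pou3f1 lies at chr4:124656807-124660655 on the plus strand and Pou3f2 at chr4:22482780-22488366 on the minus strand. Pou3f3 lies at chr1:42695768-42703176 on the plus strand. The POU3F members are compact genes of 3849 to 7409 bases, and Zfhx3 spans 1018987 bases.

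Promoter entries from RefSeq (GRCm38.p6) were found for 4 of the 6 members. Those of Pou3f2 and Pou3f3 are printed because these close relatives, which share much of their function in the cortex, differed in opposite directions between the libraries. Each is the 250 bases before the start of the gene, 5′ to 3′ on the gene's own strand, at chr4:22488367-22488616 (minus strand) and chr1:42695518-42695767 (plus strand), and capitals mark matches to CCAAT on either strand (ATTGG on the other).
Pou3f2: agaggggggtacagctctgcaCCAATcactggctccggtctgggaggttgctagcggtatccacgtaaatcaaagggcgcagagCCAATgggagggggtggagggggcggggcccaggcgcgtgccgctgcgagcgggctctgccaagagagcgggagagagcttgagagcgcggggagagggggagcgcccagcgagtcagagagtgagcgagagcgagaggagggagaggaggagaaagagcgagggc
Pou3f3: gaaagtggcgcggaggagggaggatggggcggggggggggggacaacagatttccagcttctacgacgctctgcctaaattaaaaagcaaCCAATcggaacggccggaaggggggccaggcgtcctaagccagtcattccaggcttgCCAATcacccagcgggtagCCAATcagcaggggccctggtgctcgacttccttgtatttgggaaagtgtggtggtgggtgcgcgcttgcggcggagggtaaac
The Pou3f2 window held 2 such matches and the Pou3f3 window 3, and the windows of Zfhx2 and Zfhx3 held none. These last windows, at chr14:55092049-55092298 and chr8:108714394-108714643, lie inside the gene spans given above, before other starts. Of 32851 promoter windows of this length, 33.8% held at least 1 match, 10.1% at least 2 and 2.79% at least 3. The POU octamer ATGCAAAT (1.6% of windows), the homeodomain core TAATTA (4.84%) and the E-box CAGCTG (13%) were found in none of the 4 members' windows on either strand. The motifs were picked after the sequences were seen, and a match or its absence says nothing about binding.

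Among the neural classes, Pou3f1 and Zfhx2 were highest in amacrine-like cells and Pou3f2 in progenitor-like cells, while the other members were shared with cells outside the neural retina. Zfhx2 was highest in amacrine-like cells (80.6 and 90.1 CPM) and lower in neurogenic-like (35.8 and 35.01 CPM), photoreceptor-like (29.8 and 20.4 CPM) and progenitor-like cells (22.2 and 21.5 CPM). Pou3f1 was also high in amacrine-like cells, at 643 and 593 CPM, and these cells held 50.6% and 56.2% of its UMIs. It stood at 105 and 93.3 CPM in neurogenic-like cells, 68.3 and 59.9 CPM in photoreceptor-like cells and 19.5 and 25.2 CPM in progenitor-like cells. The few Schwann-like cells (21 and 18) had 80 and 27 Pou3f1 UMIs, or 705 and 226 CPM. An unnamed cluster of 107 control and 104 mutant cells, led by Nhlh2 and other amacrine genes but carrying photoreceptor markers, stood at 552 and 615 CPM.

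Pou3f2 had the opposite arrangement and was highest in progenitor-like cells. Its level there was 87.8 and 95.7 CPM, and 64.7% and 70.7% of its UMIs came from this class. Neurogenic-like cells stood at 51.4 and 53.3 CPM, amacrine-like cells at 44.6 and 53.0 CPM, and photoreceptor-like cells at 8.98 and 7.39 CPM. In both libraries the counting intervals of neurogenic-like and amacrine-like cells overlapped, so these neighbours in the order could not be told apart.

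Zfhx3, Zfhx4 and Pou3f3 had more of their UMIs in cells like mesenchyme or pericytes than in any other class of the eye cup, in both libraries. The class like mesenchyme or pericytes held 54.7% of the control UMIs of Zfhx3, 70.3% of those of Zfhx4 and 58.6% of those of Pou3f3. In the mutant it held 46.2%, 67.5% and 81.0%. Its levels were 202 and 276 CPM for Zfhx3, 98.5 and 117 CPM for Zfhx4, and 42.0 and 57.3 CPM for Pou3f3. Within that class the cluster led by A2m, Kera and Aldh3a1 (154 and 155 cells), of which Kera encodes a corneal proteoglycan, had 627 and 683 CPM of Zfhx3 and 255 and 241 CPM of Pou3f3. The cluster led by Lypd1 and Spp1 (152 and 110 cells) had the higher Zfhx4, at 205 and 272 CPM. In the neural retina Zfhx3 was highest in amacrine-like cells, at 188 and 418 CPM, and Zfhx4 reached 22.4 and 55.2 CPM there. Control amacrine-like cells had 53.5 CPM of Pou3f3, and those of the mutant 20.5 CPM.

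**Figure D1:**
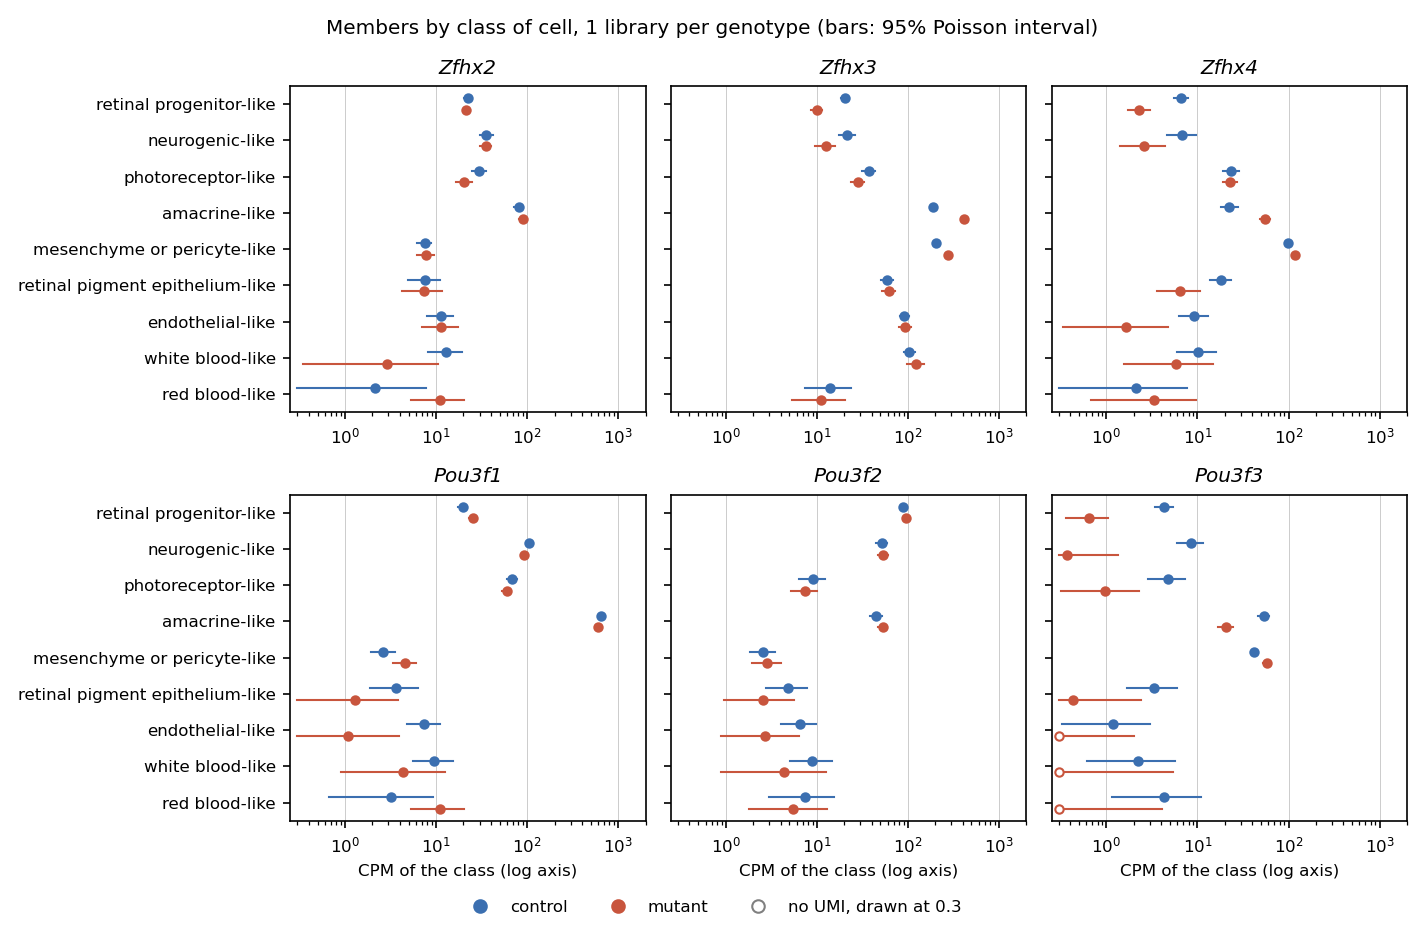
Level of each member in CPM on a log axis, with control and mutant side by side and bars for exact 95% counting intervals. The classes drawn are the 4 neural ones, mesenchyme or pericyte, RPE, endothelial, white blood and red blood. Schwann-like cells and the remaining named classes are not drawn. Pou3f1 and Zfhx2 were high in amacrine-like cells, Pou3f2 in progenitor-like cells, and Zfhx3, Zfhx4 and Pou3f3 also in cells like mesenchyme or pericytes.

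Over all kept cells the members differed little between the libraries. Pou3f2 was 1.30-fold higher in the mutant (2621 UMIs, 38.1 CPM and 3188 UMIs, 49.6 CPM, interval of the ratio 1.24 to 1.37). Pou3f1 was 1.24-fold higher (70.8 and 88.1 CPM, 1.20 to 1.29), Zfhx2 1.16-fold higher (22.5 and 26.1 CPM, 1.08 to 1.24) and Zfhx3 1.13-fold higher (92.1 and 104 CPM, 1.09 to 1.17). Pou3f3 was 1.45-fold lower (1231 UMIs, 17.9 CPM and 794 UMIs, 12.4 CPM, 1.32 to 1.58) and Zfhx4 1.15-fold lower (34.9 and 30.4 CPM, 1.08 to 1.22). None of the 6 members differed by 2-fold or more, where 0.121% of the 15730 genes with at least 50 UMIs were at least 2-fold higher in the mutant and 0.712% at least 2-fold lower.

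The mix of cells differed between the libraries as well. The mutant library held more neural cells (the 4 classes made up 55.0% of control and 73.4% of mutant cells) and fewer mesenchyme-like cells (12.3% and 8.77%). Each difference was therefore divided into a term for the mix of classes and a term for the level within classes, given in CPM ± the standard error from counting. For Pou3f1 the mix gave 21.70 ± 0.30 and the level within classes -4.43 ± 1.57, so its higher sum came from the mix. Of that mix term 17.18 CPM came from amacrine-like cells, which supplied 5.57% of control UMIs and 8.35% of mutant UMIs. Pou3f2 had a mix term of 8.90 ± 0.21, of which progenitor-like cells gave 7.92 CPM, and a within-class term of 2.65 ± 1.16. Within only the 4 neural classes these turned to -0.26 ± 0.04 and 5.85 ± 1.99. The mix term of Zfhx2 was 3.75 ± 0.23 and its within-class term -0.15 ± 0.89.

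For Zfhx3 the terms had opposite signs, with -15.17 ± 0.49 for the mix and 27.36 ± 1.79 for the level within classes. The scarcer mesenchyme-like cells contributed -17.80 CPM and the more frequent amacrine-like cells added 8.43 CPM, whereas higher levels within amacrine-like and within mesenchyme-like cells added 15.97 and 15.65 CPM. With the 36 clusters in place of classes the Zfhx3 terms were smaller, at -4.72 ± 0.49 and 16.91 ± 1.77. Zfhx4 repeated this arrangement at a smaller size, with -7.90 ± 0.34 for the mix and 3.37 ± 1.05 within classes. For Pou3f3 both terms were below 0, at -3.35 ± 0.26 and -2.18 ± 0.75, but with clusters as strata the mix term turned to 0.67 ± 0.25 and the within term was -6.20 ± 0.73. Within only the 4 neural classes the mix terms of these 3 genes were small and positive, at 4.52, 0.50 and 0.54 CPM, beside within-class terms of 20.66, 0.94 and -8.03 CPM.

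**Figure D2:**
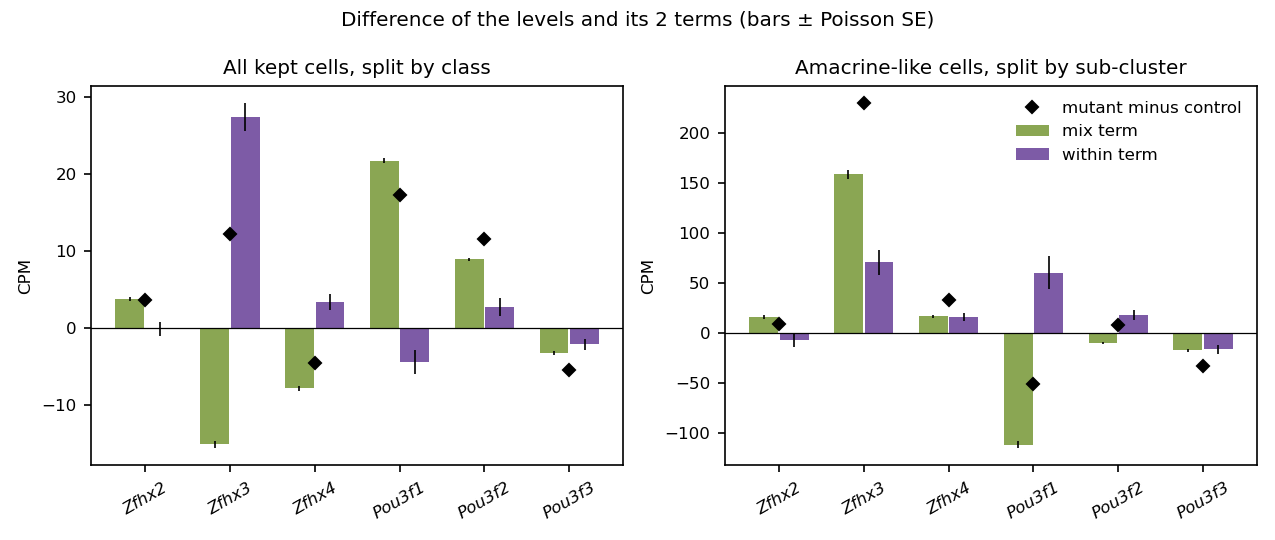
The mutant minus control difference of each member in CPM, divided into a mix term and a within-class term with standard errors from counting, over all kept cells with classes as strata and over the sub-clusters of amacrine-like cells. Over all kept cells the Pou3f1 difference lay in the mix term, and the Zfhx3 difference joined a mix term of -15.17 with a within-class term of 27.36.

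In amacrine-like cells Zfhx3 and Zfhx4 were higher and Pou3f3 was lower in the mutant. Zfhx3 was 2.22-fold higher in the mutant (722 UMIs, 188 CPM and 2241 UMIs, 418 CPM, 2.04 to 2.42). Zfhx4 was 2.46-fold higher (86 UMIs, 22.4 CPM and 296 UMIs, 55.2 CPM, 1.93 to 3.16). Pou3f3 was 2.61-fold lower (205 UMIs, 53.5 CPM and 110 UMIs, 20.5 CPM, 2.06 to 3.32). The remaining 3 members stood close together in the libraries. Zfhx2 was 1.12-fold higher (309 and 483 UMIs, 0.966 to 1.29), Pou3f2 1.19-fold higher (171 and 284 UMIs, 0.978 to 1.44) and Pou3f1 1.09-fold lower (2465 and 3177 UMIs, 1.03 to 1.14). Thus 2 of 6 members were at least 2-fold higher and 1 at least 2-fold lower, where 0.273% of the 9887 genes measured in this class were at least 2-fold higher and 0.668% at least 2-fold lower. Since the members were chosen on these values, nothing is read from that count.

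The differences were placed unevenly among the 3 clusters of the class. In the cluster with Meis2, Tfap2a and Lhx9 among its leading genes (241 and 375 cells), Zfhx3 was 325.4 and 790.4 CPM, Zfhx4 35.9 and 108 CPM, and Pou3f3 103 and 43.2 CPM. In the Nhlh2-led cluster (220 and 261 cells) Zfhx3 was 163 and 214 CPM, and Pou3f3 38.9 and 5.88 CPM. In the cluster with Ptf1a and Prdm13, early amacrine fate factors, among its leading genes (260 and 319 cells), Zfhx3 was low in both libraries, at 47.8 and 56.6 CPM. Pou3f1 stood at 1059 and 916 CPM there and at 872 and 925 CPM in the Nhlh2-led cluster, against 103 and 160 CPM in the cluster with Meis2.

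Markers of other cell types also differed between the libraries within this class. The 9 genes of the mesenchyme list, all with UMIs in both libraries, summed to 1394 CPM in control and 201 CPM in mutant amacrine-like cells, and the red blood list to 2839 and 179 CPM. The lens list stood at 177 and 3.17 CPM. The ganglion cell list stood at 997 and 1165 CPM, the progenitor list at 1323 and 1318 CPM and the amacrine list at 4516 and 4339 CPM. Per 1000 UMIs of the mesenchyme list, amacrine-like cells held 38.4 and 102 Pou3f3 UMIs, beside 2.07 and 1.95 in the A2m-led mesenchyme cluster. The part of RNA from other cell types in these differences was not tested.

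Amacrine-like cells were then clustered again with the members left out, which gave 11 sub-clusters, and their shares differed. The libraries were not integrated for this step, and the part of library-wide differences in the sub-clusters was not tested. The sub-cluster led by Nr4a2, St8sia1 and Meis2 made up 5.55% of control amacrine-like cells (40 cells) and 15.7% of those of the mutant (150 cells), and Zfhx3 itself was among its leading genes. The Cbln2-led and Pde4b-led sub-cluster made up 3.19% (23 cells) and 8.27% (79 cells), with 2700069I18Rik, the antisense neighbour of Zfhx4, among its leading genes and 3 of the 6 red blood markers counted in it. The sub-cluster led by Tfap2e, in which Pou3f3 and its neighbour Pantr1 were themselves among the leading genes, made up 19.7% (142 cells) and 9.63% (92 cells). The Nhlh2-led sub-cluster made up 13.0% and 18.4%, and that led by Cplx3 and Tlx2 19.8% and 15.1%. With 1 library per genotype, a sub-cluster filled mostly from 1 library cannot be told apart from a property of that library.

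Zfhx3 was high in both libraries in 3 sub-clusters, and in 2 of them the interval of its ratio included 1. It stood at 1352 and 1449 CPM in the Cbln2-led sub-cluster (199 and 741 UMIs, ratio 1.07, 0.915 to 1.26) and at 638 and 729 CPM in the Nr4a2-led sub-cluster (158 and 642 UMIs, ratio 1.14, 0.959 to 1.37). The third was the sub-cluster led by Nefl and Gbx2 (34 and 59 cells), which carried 4 ganglion cell markers. There Zfhx3 was 487 and 967 CPM (114 and 420 UMIs, ratio 1.98, 1.61 to 2.46) and Zfhx4 68.3 and 163 CPM (16 and 71 UMIs, ratio 2.39, 1.38 to 4.41). Split over the sub-clusters, the Zfhx3 difference in amacrine-like cells had a mix term of 158.64 ± 4.51 CPM and a within term of 70.91 ± 12.43 CPM. The Nr4a2-led and Cbln2-led sub-clusters gave 68.1 and 79.8 CPM of that mix term, and the Nefl-led sub-cluster gave 34.1 CPM of the within term. With the 3 clusters of the class as strata the same difference was 24.82 for the mix and 204.73 within, so the terms depended on the strata. The sub-clusters came from a separate clustering and need not lie inside single clusters. For Zfhx4 the sub-cluster terms were 16.75 ± 1.41 and 16.01 ± 4.12 CPM, against 3.43 and 29.33 CPM with the clusters.

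Most Pou3f3 UMIs of amacrine-like cells lay in the Tfap2e-led sub-cluster, where its counting intervals overlapped: 172 and 155 CPM (138 and 83 UMIs, ratio 0.903, 0.679 to 1.19). Pantr1 stood at 88.3 and 48.5 CPM there (71 and 26 UMIs, 1.82-fold lower, 1.15 to 2.97). In the Nhlh2-led sub-cluster, by contrast, Pou3f3 was 30.6-fold lower in the mutant (32 UMIs, 61.3 CPM and 2 UMIs, 2.01 CPM, 7.80 to 263). No UMI of Pou3f3 was found in the Cbln2-led sub-cluster of either library. Its mix term over the sub-clusters was -17.04 ± 1.41 CPM and its within term -15.95 ± 4.31 CPM, whereas with the clusters as strata they were 3.39 and -36.37 CPM. Pou3f1 had large terms of opposite sign over the sub-clusters, -111.22 ± 3.56 for the mix and 60.45 ± 16.80 within, against -48.21 and -2.56 CPM with the clusters. It was highest in the sub-cluster led by Cplx3 and Tlx2, at 1434 and 1715 CPM, and in one led by the globin genes Hba-a2 and Hba-a1 that carried Ptf1a and Prdm13, at 1503 and 1240 CPM. Zfhx2 was highest in the Cbln2-led sub-cluster, at 211 and 180 CPM.

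**Figure D3:**
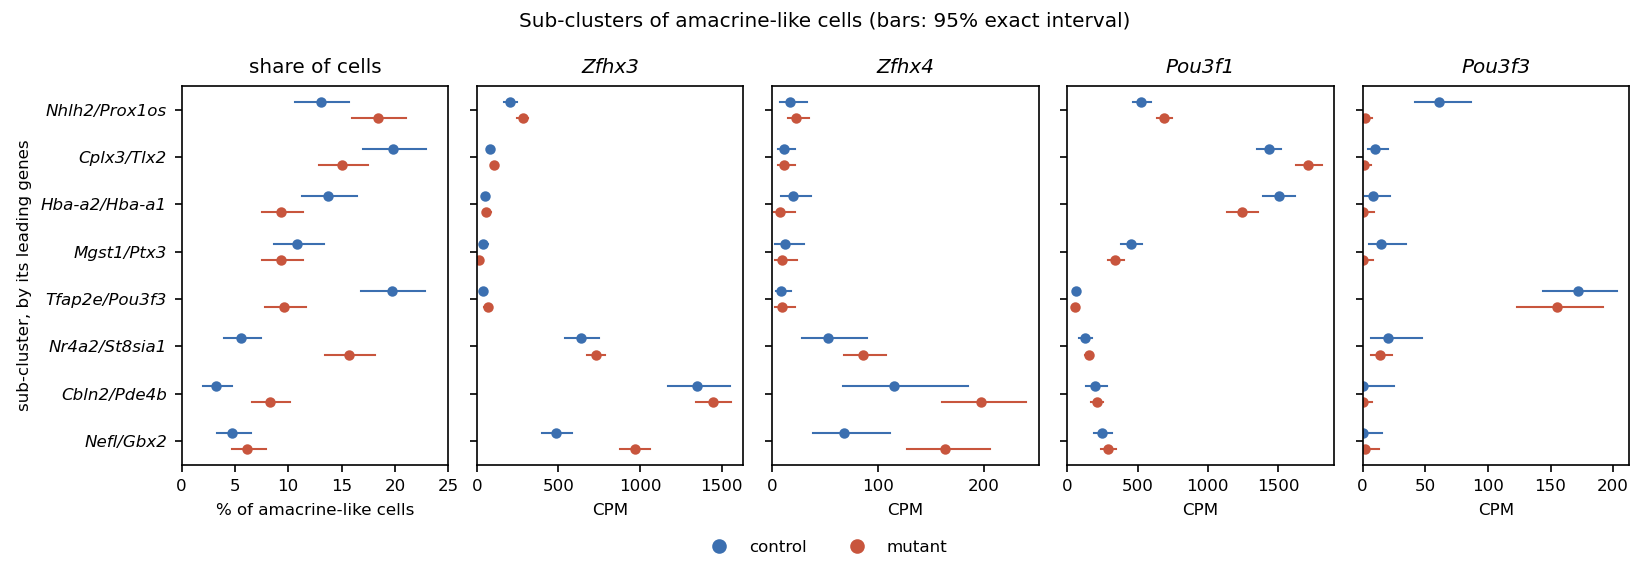
Share of amacrine-like cells in each sub-cluster drawn, in percent, and the levels of Zfhx3, Zfhx4, Pou3f1 and Pou3f3 in it in CPM. Control and mutant are shown with exact 95% intervals. The sub-clusters named as progenitors and the shallow one are not drawn. The Nr4a2-led and Cbln2-led sub-clusters, high in Zfhx3 in both libraries, held 5.55% and 3.19% of control and 15.7% and 8.27% of mutant amacrine-like cells.

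Shares of cells were compared after each cell had been thinned to 1000 UMIs, which left out 8 control and 10 mutant amacrine-like cells. A Zfhx3 UMI was found in 11.5% of control (9.25 to 14.1) and 20.6% of mutant amacrine-like cells (18.1 to 23.4), before thinning in 29.0% and 44.1%. In red blood-like cells, which should lack it, the thinned share was 2.63% and 4.76%, and in endothelial-like cells 9.40% and 10.8%. For Zfhx4 the thinned shares were 1.68% (0.87 to 2.92) and 4.23% (3.04 to 5.72), and for Pou3f3 3.65% (2.40 to 5.30) and 1.38% (0.73 to 2.34). Thinned endothelial-like cells had 1.31% for Zfhx4 and 0.261% for Pou3f3 in the control, and 0 of 157 cells for either gene in the mutant, which allows up to 1.91% by a floor of 3 cells. In progenitor-like cells the thinned shares were 2.39% and 1.00% for Zfhx3, 0.660% and 0.262% for Zfhx4, and 0.660% and 0.131% for Pou3f3. The control share of Zfhx3 in amacrine-like cells was above that of progenitor-like cells (1.93 to 2.91), and its interval overlapped that of endothelial-like cells (6.67 to 12.8). The interval of the control share of Zfhx4 overlapped those of progenitor-like (0.432 to 0.966) and endothelial-like cells (0.425 to 3.02). The mutant share of Pou3f3 was above that of progenitor-like cells (0.0481 to 0.285). The intervals of both libraries did not overlap for Zfhx3, Zfhx4 and Pou3f3. Pou3f1 was found in 36.5% and 33.1% of thinned amacrine-like cells beside 0.88% and 1.19% of red blood-like cells. Zfhx2 was found in 7.29% and 7.51%, and Pou3f2 in 4.07% and 4.66%.

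Pairs of members differed in how often they met in the same thinned amacrine-like cell. Zfhx3 and Zfhx4 were found together in 4 control cells, where their shares alone gave 1.38, and in 22 mutant cells, where they gave 8.25. Zfhx3 and Zfhx2 were found together in 5 and 22 cells beside 5.98 and 14.65. Pou3f1 and Pou3f3 met less often than their shares gave, in 4 and 1 cells beside 9.48 and 4.31, and Zfhx3 and Pou3f2 in 1 and 3 cells beside 3.34 and 9.08. These counts are small and describe cells of 1 library each.

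In progenitor-like cells the order of the differences was another. Zfhx3 was 2.04-fold lower in the mutant (392 UMIs, 20.3 CPM and 234 UMIs, 9.93 CPM, 1.73 to 2.41), Zfhx4 2.89-fold lower (128 and 54 UMIs, 2.09 to 4.05) and Pou3f3 6.75-fold lower (83 and 15 UMIs, 3.87 to 12.6). Pou3f1 was 1.29-fold higher (377 and 593 UMIs, 1.13 to 1.47) and Pou3f2 1.09-fold higher (1696 and 2255 UMIs, 1.02 to 1.16). By the pseudocounted fold, 2 of 6 members were at least 2-fold lower and none at least 2-fold higher, where 0.746% of 12465 genes were at least 2-fold lower and 0.128% at least 2-fold higher. With 5 CPM added in place of 1, both calls were lost, at log2 ratios of -0.67 for Zfhx4 and -0.72 for Pou3f3. The 3 lower genes are the ones that cells like mesenchyme or pericytes carry, and the 9 mesenchyme markers in progenitor-like cells summed to 1449 and 235 CPM. The lens list stood at 137 and 0.849 CPM there and the RPE list at 128 and 81.1 CPM. The red blood list was near equal, at 252 and 242 CPM. Per 1000 mesenchyme-list UMIs, progenitor-like cells held 2.97 (2.36 to 3.68) and 2.71 (1.52 to 4.48) Pou3f3 UMIs, but 14.02 (12.7 to 15.5) and 42.4 (37.1 to 48.1) Zfhx3 UMIs and 4.58 (3.82 to 5.44) and 9.77 (7.34 to 12.8) Zfhx4 UMIs. Relative to the mesenchyme list, Zfhx3 and Zfhx4 were thus higher in the mutant, and Pou3f3 had overlapping intervals. Because the list was itself lower in the mutant, the other members rose against it too. Zfhx2 had 15.3 and 91.8 UMIs per 1000, Pou3f1 13.5 and 107, and Pou3f2 60.6 and 408. A ratio to a list that itself differed cannot show which part of a member came from other cells. The Pou3f3 ratio was 2.07 and 1.95 in the A2m-led mesenchyme cluster, 2.99 and 4.01 in the Lypd1-led one, and 0.747 and 0.899 over the whole class like mesenchyme or pericytes. The part of RNA from other cell types in the lower levels was not tested.

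Zfhx3 and Pou3f3 were lower in neurogenic-like and photoreceptor-like cells too. In neurogenic-like cells Zfhx3 was 1.73-fold lower (98 and 67 UMIs, 1.26 to 2.40). Zfhx4 had 31 and 14 UMIs, and Pou3f3 was 22.5-fold lower (38 and 2 UMIs, 5.82 to 193). The mesenchyme list summed to 1423 and 186 CPM there, the lens list to 151 and 1.12 CPM and the RPE list to 94.3 and 46.0 CPM. The red blood list went the other way, at 170 and 195 CPM. None of the 4 members measured (at least 50 UMIs) in that class was 2-fold different, where 0.169% of 10036 genes were at least 2-fold higher and 0.578% at least 2-fold lower. In photoreceptor-like cells Pou3f3 had 20 and 5 UMIs, Zfhx3 stood at 37.3 and 28.0 CPM and Zfhx4 had 99 and 118 UMIs, a near equal level, beside 2056 and 305 CPM of the mesenchyme list, 253 and 869 CPM of the red blood list and 210.3 and 1.75 CPM of the lens list. Zfhx2 was 1.46-fold lower there (126 and 105 UMIs, 1.12 to 1.91), and in mesenchyme-like cells it stood at 7.46 and 7.76 CPM. The part of RNA from other cells in the photoreceptor-like values was not tested. None of the 5 members measured was 2-fold different, where 0.27% of 9988 genes were at least 2-fold higher and 0.821% at least 2-fold lower.

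In cells like mesenchyme or pericytes the ratios went upward for all 3 genes that this class carries. Zfhx3 was 1.37-fold higher in the mutant (1.30 to 1.43), Pou3f3 1.36-fold higher (1.22 to 1.52) and Zfhx4 1.19-fold higher. The A2m-led cluster held 154 of the 1530 control and 155 of the 947 mutant cells of the class, and inside it the ratios were smaller: 1.09 for Zfhx3 (1.01 to 1.17), 1.07 for Zfhx4 (0.909 to 1.25) and 0.943 for Pou3f3 (0.838 to 1.06). In the Lypd1-led cluster they were 1.17 for Zfhx3 (1.04 to 1.32), 1.33 for Zfhx4 (1.13 to 1.56), above its ratio over the class, and 1.30 for Pou3f3 (0.968 to 1.75).

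Cells were then divided by cell cycle genes (at least 2 UMIs of an S phase list or of a G2 and mitosis list). Among progenitor-like cells Pou3f2 stood at 102 and 107 CPM where only G2 and mitosis genes were found, and at 73.9 and 75.7 CPM where only S phase genes were. Cells with neither list stood at 74.6 and 92.6 CPM. In neurogenic-like cells with both lists it stood at 62.2 and 64.1 CPM, and in those with neither list at 21.4 and 29.4 CPM. Pou3f1 and Zfhx2 had the opposite order in neurogenic-like cells. Pou3f1 was 85.3 and 81.1 CPM in cells with both lists and 158 and 128 CPM in those with neither, and Zfhx2 was 29.2 and 29.3 CPM against 54.2 and 46.0 CPM. These groups rest on UMIs of unthinned cells, so depth can move a cell between them, and they do not show which cells divide.

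Genes with the most similar pattern were sought over 27 clusters in both libraries, which gave 54 points sharing 2 libraries, among 13569 genes, by Pearson correlation of log2(CPM + 1) as a description. Pou3f1 was most like Tagln3 (0.96), Mir124-2hg (0.93) and Nol4 (0.93), and Zfhx2 most like Dpysl4 (0.92), Nol4 (0.90) and Gm26735 (0.90). Pou3f2 was most like C130071C03Rik (0.94), Syt11 (0.93) and Ppp1r14c (0.92). Zfhx3 had looser companions, Jph4 (0.82), Nav1 (0.82) and Tubg2 (0.81), and so had Zfhx4 with Lhfp (0.83), Gpr27 (0.83) and Dnm3os (0.82). Pou3f3 was most like Pantr1 (0.87), its divergent neighbour, and then Chst5 (0.73) and Col7a1 (0.73). Among the members themselves Zfhx2 and Pou3f1 had the value 0.86, Zfhx3 and Zfhx4 0.79, Zfhx3 and Pou3f3 0.62, and Zfhx4 and Pou3f2 -0.59.

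In amacrine-like cells 2 features beside the members differed in the same direction as they did. Pantr1, a long noncoding RNA at chr1:42590782-42694842 on the minus strand, starts a short distance before Pou3f3 on the opposite strand and was 2.52-fold lower in the mutant (83 and 46 UMIs, 1.74 to 3.70). The antisense transcript 2700069I18Rik at chr3:5177586-5220841 overlaps the start of Zfhx4 and was 5.08-fold higher (9 and 64 UMIs, 2.52 to 11.6). As the use of strand in the counting was not given in the sources used here, reads of Zfhx4 and of this transcript may not be fully told apart. Zfhx2os, antisense to Zfhx2 at chr14:55053869-55075873, had 6 and 13 UMIs.

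Other POU genes and other subtype factors were listed for context in amacrine-like cells. The ratios in this paragraph and the 2-fold counts were taken on the log2(CPM + 1) scale, which makes them smaller than plain ratios. Of 12 further POU genes 3 were measured there and none was 2-fold different, with a median log2 ratio of 0.01 beside 0.04 over all genes. These were Pou6f1 (20.1 and 21.1 CPM, log2 ratio 0.07), Pou2f1 (34.2 and 34.3 CPM, 0.01) and Pou2f2 (90.8 and 86.5 CPM, -0.07). Pou3f4, the remaining gene of the third class, had 4 and 5 UMIs over all kept cells. Of 34 neuronal subtype factors 28 were measured and none was 2-fold different, with a median of 0.02. The largest ratios upward were those of Mef2c (9.92 and 17.7 CPM, log2 ratio 0.78), Tshz1 (41.8 and 67.3 CPM, 0.68) and Meis2 (794 and 1106 CPM, 0.48), and downward those of Neurod2 (30.3 and 15.1 CPM, -0.96), Myt1l (92.7 and 63.8 CPM, -0.53) and Nfia (79.1 and 57.6 CPM, -0.45). Of the same factors 25, 21 and 17 were measured in progenitor-like, neurogenic-like and photoreceptor-like cells, and Tshz2 in photoreceptor-like cells (127 and 314 UMIs, 61.1 CPM in the mutant) was the only one past 2-fold.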

How the data were processed

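Whole-number UMI counts per gene and barcode were deposited by the authors as 1 matrix per library, made from 3′ single-cell libraries with Cell Ranger 7.1.0 on mm10 per the submitters' processing notes, which also name Seurat 4.1.1. The matrix headers name software version 3.1.0. The control and the mutant were 1 library each, pooled from 3 eye cups, with 14305 and 12222 barcodes, the same numbers of cells as the study gives.

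Cells with at least 200 genes and at most 15% mitochondrial UMIs were kept. Doublets were removed with Scrublet (scanpy 1.11.5) at the expected rate of 0.8% per 1000 cells, because its own threshold marked 0% of control barcodes. This took out 1682 control and 1230 mutant barcodes. The upper limit of 2000 UMIs that the methods state was not used, since 80.2% and 92.1% of all barcodes exceed it. Libraries were integrated and clustered at resolution 1 with Seurat 5.3.0 (R 4.3.3, 30 components), with 73 gene names, the members and the gene lists among them, left out of the variable genes. The 36 clusters were named from fixed marker lists. Amacrine-like cells of both libraries were clustered again without integration (20 components). The limit that left shallow clusters unnamed was chosen after the clusters had been seen.

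For each library, UMIs of a class were added up and scaled to that class's total (CPM). Ratios are plain ratios with exact conditional Poisson intervals. Counts past 2-fold used log2(CPM + 1) over genes with at least 50 UMIs in the class. The mix and within terms used mean weights of both libraries. Shares used cells thinned to 1000 UMIs, with Clopper-Pearson intervals. Scripts were tested on simulated data.

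Named genes were the 6 members, the 3 genes most like each, up to 3 genes per direction from the POU family and subtype factor lists in amacrine-like cells, and features beside a member. Tshz2, the Myrf check and cluster-leading genes were named outside this rule. The members and lists were chosen with earlier results of these data known. Embryonic libraries were not analysed here.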

Additional observations from a re-analysis of the deposited data

Results flagged for a closer look

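Zfhx3 was higher in mutant amacrine-like cells (log2 ratio with 1 CPM added, 1.15) and lower in progenitor-like (-0.96), neurogenic-like (-0.75) and photoreceptor-like cells (-0.40), so its single libraries differed in opposite directions between classes. Zfhx4 did the same in amacrine-like (1.26) and progenitor-like cells (-1.21). Pou3f1 was higher in mutant progenitor-like cells (0.35) and lower in amacrine-like cells (-0.12). The counting intervals of these ratios did not include 0, but with 1 library per genotype the difference between the classes was not tested. The summed mesenchyme markers stood at 1449 and 235 CPM in progenitor-like and 1394 and 201 CPM in amacrine-like cells, control before mutant, and their part was not tested.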

How the results depend on the processing

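No paired analysis was possible because each genotype had 1 library, and no replicate could be left out. Of 480 values of single members under alternatives, 397 moved by less than their counting interval and 75 by more, and 8 whose interval excluded 0 changed sign. In all 26 changed sign, the others from values whose interval included 0. Cells of at most 2000 UMIs, of which only 30 control and 26 mutant were amacrine-like, turned Zfhx3 over all kept cells to -0.43, Zfhx2 in photoreceptor-like cells to 1.93 and Pou3f1 in amacrine-like cells to 0.14 (log2 ratios), with 1 member past 2-fold over all kept cells against 0, and 0 of the member and class pairs against 5. That count of pairs was 3 with thinned cells and 3 with a pseudocount of 5 CPM. The number of members whose within-class term exceeded the mix term was 1, and became 2 with clusters as strata, 2 with control weights and 4 within the neural classes. Clusters as strata turned the mix term of Pou3f3 to 0.67 CPM, and the neural classes alone turned the mix terms of Zfhx3, Zfhx4, Pou3f2 and Pou3f3 to 4.52, 0.50, -0.26 and 0.54 CPM. Of the context genes 1 was past 2-fold, against 3 with at least 20 UMIs, 4 without a filter and 10 at 1.5-fold. The causes were not tested. Over 15 settings the amacrine-like log2 ratio ran from 0.94 to 1.19 for Zfhx3, from 0.27 to 1.31 for Zfhx4, from -6.28 to -1.20 for Pou3f3 and from -0.31 to 0.14 for Pou3f1. The removal of barcodes shared by both libraries, of unnamed clusters and of the sub-clusters led by progenitor genes or shallow cells was chosen after seeing the data. Some values rest on few UMIs, such as the 2 Pou3f3 UMIs in mutant neurogenic-like cells.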
